A study of Mus musculus with 5 samples.

Results

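Immediate early genes are a set of genes that cells switch on within minutes of a stimulus. Their expression is described here in hematopoietic stem cells (HSCs) with and without Syncrip, which encodes a protein that binds RNA. The 10 genes were Fos, Fosb, Jun, Junb, Jund, Egr1, Nr4a1, Ier2, Dusp1 and Zfp36, found by symbol among the 24046 genes of the deposited expression table. They were chosen by their measured expression in these same libraries, in the comparison of KO with WT, so that difference is given below as a description, with no test.

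The cells came from bone marrow of Syncrip flox/flox mice that carried either no Cre transgene (genotype Mx1 Cre-, here WT) or the Mx1 Cre transgene (Mx1 Cre+, here KO). Whole marrow was transplanted into congenic CD45.1 recipients, and per the study's methods donors and recipients were 6 to 8 weeks old. After 6 weeks of engraftment both groups received polyinosinic:polycytidylic acid (pIpC), which mimics viral RNA, induces interferon and thereby the Mx1 promoter. Donor HSCs were sorted 9 weeks after transplant and 3 weeks after pIpC as CD45.2+, Lin-, Sca1+, cKit+, CD150+, CD48- cells. The WT group had 3 libraries (WT 1, WT 2 and WT 3) and the KO group 2 (KO 2 and KO 3). All libraries therefore shared the floxed alleles, the transplant and the interferon inducer, and only the KO group carried Cre, which acts in any interferon-responsive donor cell. The labels do not say whether a library was 1 mouse or a pool, so the spread within a group may be technical.

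Immediate early genes are transcribed without new protein synthesis, because the factors that switch them on, such as SRF with its ELK partners and CREB, already sit in the cell and are activated by MAP kinases. Proteins of the Fos family pair with those of the Jun family to form the transcription factor AP-1, while EGR1 and NR4A1 are DNA-binding factors on their own. Other products close the loop, since DUSP1 removes phosphate from MAP kinases and ZFP36 (tristetraprolin) binds AU-rich stretches in the 3′ end of short-lived mRNAs and speeds their decay. In HSCs several of these factors are known for a part in quiescence, and the whole set is known to respond to tissue dissociation and sorting.

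Promoters are shown for the members with both KO values below every WT value, Fos and Zfp36, and for Dusp1, whose window holds a full cAMP response element. Windows run from 250 bases before to 50 bases after the RefSeq start site in GRCm38.p6, and 8 of the 10 members had one. Egr1 and Ier2 did not. Sites outside the windows were not searched, so a window without a match does not show that the gene lacks the site. Capitals mark matches to TATAAA, TGACGTCA, the CArG box bound by SRF, and the EGR sites GCGTGGGCG and GCGGGGGCG, searched on both strands. Fos lies at chr12:85473640-85473939 on the plus strand, Dusp1 at chr17:26508423-26508722 on the minus strand and Zfp36 at chr7:28379179-28379478 on the minus strand.
Fos: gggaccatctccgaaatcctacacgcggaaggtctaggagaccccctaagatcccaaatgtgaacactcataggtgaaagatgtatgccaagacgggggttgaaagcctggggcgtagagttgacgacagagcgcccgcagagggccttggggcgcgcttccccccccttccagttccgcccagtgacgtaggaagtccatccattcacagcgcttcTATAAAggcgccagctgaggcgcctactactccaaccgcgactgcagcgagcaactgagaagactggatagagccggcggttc
Dusp1: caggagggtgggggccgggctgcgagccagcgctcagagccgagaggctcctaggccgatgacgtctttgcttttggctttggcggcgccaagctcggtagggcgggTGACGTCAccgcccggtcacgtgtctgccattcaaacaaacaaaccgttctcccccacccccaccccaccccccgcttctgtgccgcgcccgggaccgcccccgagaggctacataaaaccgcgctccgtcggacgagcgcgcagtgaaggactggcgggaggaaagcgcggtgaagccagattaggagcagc
Zfp36: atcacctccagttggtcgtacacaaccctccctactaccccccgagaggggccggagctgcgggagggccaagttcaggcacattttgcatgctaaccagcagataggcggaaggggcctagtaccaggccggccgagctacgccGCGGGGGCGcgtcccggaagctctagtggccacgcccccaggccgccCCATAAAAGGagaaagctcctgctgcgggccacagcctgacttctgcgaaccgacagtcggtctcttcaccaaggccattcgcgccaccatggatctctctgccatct

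The Fos window held TATAAA at positions -33 to -28 from the start site, a word that 13.6% of all 32851 RefSeq windows contain, and the Junb window held it at positions 1 to 6, at the start site itself. Among the 8 member windows, that of Zfp36 had the single CArG box, at -58 to -49 (1.63% of all windows), and an EGR site at -105 to -97. EGR sites also stood in the windows of Fosb and Nr4a1 (3.47% of all windows). Of the 8 windows, that of Dusp1 held TGACGTCA, at -143 to -136 (1.79% of all windows). The consensus AP-1 site TGACTCA was found in no member window (5.2% of all windows), and GGGCGG, left in lower case because it overlaps EGR sites, was found in 6 (35.7% of all windows). The Jund window, at chr8:70697489-70697788, ends before the GENCODE start of Jund at chr8:70698949. Its lack of matches therefore does not describe the bases next to that start.

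At the other end of the transcript, AU-rich words were counted in the bases after the stop codon of each gene's longest protein-coding transcript in GENCODE M21. ATTTA was present in 9 of the 10 members (all but Ier2), against 68.6% of the 12658 tested genes with such an end. TATTTAT, the longer form that ZFP36 proteins are known to prefer, was present in 6 members (Fos, Fosb, Jun, Jund, Dusp1 and Zfp36), against 29.2% of those genes. Its density was 1.2 per kilobase in the members and 0.284 per kilobase over all those genes. One site each of Fos, Dusp1 and Zfp36 is shown with its flanks, in DNA letters, with the word in capitals.
Fos, from base 656 after the stop codon: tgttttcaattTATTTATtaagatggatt
Dusp1, from base 104 after the stop codon: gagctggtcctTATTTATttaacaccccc
Zfp36, from base 590 after the stop codon: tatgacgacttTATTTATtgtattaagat

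Syncrip itself was measured at 1944, 1440 and 1794 normalized read counts in the WT libraries and at 294 and 343.2 in the KO libraries (log2 difference -2.43, limma adjusted p = 0.0352), as the labelled genotypes require. Its difference was -1.47 after correction for transcript length and GC content (limma adjusted p = 0.146), and the call was also lost without any 1 WT library (limma adjusted p = 0.164 to 0.21), with no filter (0.0503) and with limma-voom (0.0826). WT libraries held 21748781 to 22779536 reads, whereas KO 2 held 18308876 and KO 3 12539599, less than any of them, and the fewest reads behind any member value were 39. Kit was expressed at 8007 to 10741 normalized counts, yet 12 neutrophil genes made up 6.05% to 7.22% of WT reads, 5.35% of KO 2 and 2.61% of KO 3 despite the sort. Of the 12, 6 were below every WT value in both KO libraries. Mpo (193847 to 343980 counts in WT, 286876 and 175652 in KO), Elane and Prtn3 overlapped between the groups. A list of 11 monocyte and macrophage genes gave 0.467% to 0.644% of WT reads, 0.388% of KO 2 and 0.151% of KO 3, with Marco at 0 throughout. Megakaryocyte genes (8) gave 0.0312% to 0.0533% of WT reads and 0.0589% and 0.131% of KO reads, and 12 adipocyte genes gave 0.138% in KO 2 but 0.000821% to 0.00337% elsewhere, where Ucp1, Cidea and Cidec were at 0. Erythroid genes (10) spanned 0.105% to 0.207%, lymphoid genes (11) 0.0299% to 0.0508% and HSC markers (10), of which Kit had the most counts, 0.0763% to 0.12%. Single HSC markers varied more, as for Hlf (630.7 to 1719 counts in WT, 924.1 and 2114 in KO) and Fgd5 (67.7 to 318 in WT, 90.46 and 598.4 in KO). The median log2 difference of the 10 HSC markers was 0.53. Only 1 of them, Ptprc, was below every WT value (3735 to 4635) in both KO libraries (2010 and 1271), and 0 were above. The part of any of these in the results below was not tested.

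Fos was lower in both KO libraries at 32.1% of the WT mean, Zfp36 was lower at 52.1%, Ier2 was higher at 152% (a direction lost after correction for transcript GC content, as given below), and the values of the other 7 overlapped between the groups. The count of 2 members below and 1 above every WT value stands beside 23.2% of all 13661 genes tested below and 23.9% above, and nothing is read from it because this contrast chose the members. In these bulk samples, fewer expressing cells and less RNA per cell cannot be told apart. The median log2 difference of the 10 was 0.12, with a range from -1.59 to 0.83, against 0.02 for all genes tested. This median was -0.33 without KO 3 and -0.07 without WT 1, but 0.39 without WT 2 and 0.34 without KO 2. It was -0.50 after correction for transcript length and GC content, where all 10 were below 0. Among single genes, limma called 0.00732% of those tested in either direction at an adjusted p under 0.05, which was Syncrip alone, with the exceptions given above.

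**Figure D1:**
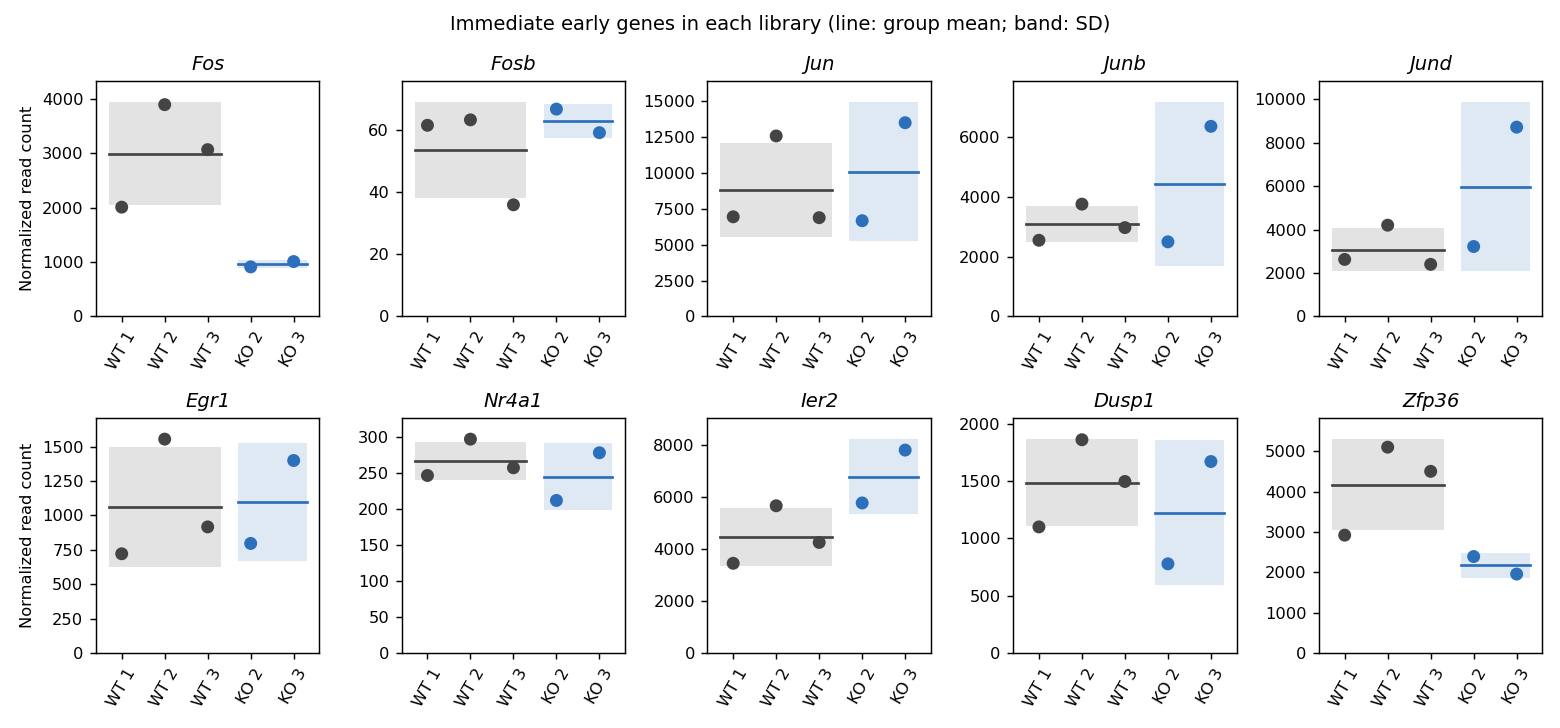
Normalized read count (vertical axis, linear from 0) of each of the 10 genes in the 3 WT libraries (grey) and 2 KO libraries (blue); lines are group means and bands 1 SD. In the Fos and Zfp36 panels both blue points lie below every grey point, in Ier2 both lie above, and in Jund the points of KO 2 and KO 3 lie 2.71-fold apart.

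The Fos family supplies the AP-1 partners that pair with Jun proteins and do not readily pair among themselves. Fos, the founding member and the one best known for its short burst after a stimulus, had 2010, 3894 and 3067 normalized counts in WT 1, WT 2 and WT 3 and 911.8 and 1010 in KO 2 and KO 3. Every WT library was well above both KO libraries, and the KO libraries lay close together, 1.11-fold apart against 1.94-fold within WT. The means were 2990 ± 945 (SD, n = 3) in WT and 961 ± 69.4 (SD, n = 2) in KO, a log2 difference of -1.59 (SE 0.27). Leaving out each library in turn gave -1.85 to -1.37.

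Fosb, a relative of Fos whose mRNA was the scarcest of the 10, gave no such difference. Its counts were 61.61, 63.36 and 35.99 in WT and 66.82 and 59.23 in KO, with WT 3 alone standing low. The log2 difference was 0.27 with an SE of 0.50, and it was 0.01 without WT 3 and -0.17 after correction for transcript length and GC content. The ratio of Fos to Fosb was 32.6, 61.5 and 85.2 in WT against 13.7 and 17.1 in KO. Of the other family members, which belong to the wider list below, Fosl2 had 226.2 to 331.5 counts in WT and 183 and 238.4 in KO. Fosl1 was low, at 16.65, 26.04 and 12.85 counts in WT and 37.01 and 71.38 in KO, so that both KO values were above every WT value (log2 difference 1.48, limma adjusted p = 0.187).

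Jun proteins can pair with each other as well as with Fos. Jun, the most abundant member by count, had 6948, 12583 and 6887 counts in the WT libraries and 6675 and 13504 in KO 2 and KO 3. WT 2 and KO 3 were high and the other 3 libraries were alike, so genotype did not separate them. The log2 difference was 0.17 (SE 0.35), and it was -0.34 without KO 3 and 0.68 without KO 2.

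Junb, often a brake on Jun-driven proliferation and known for restraining HSC expansion, had 2542, 3747 and 2964 counts in WT and 2490 and 6341 in KO. KO 2 was the lowest of the 5 libraries and KO 3 the highest. Its log2 difference of 0.38 (SE 0.36) was -0.29 without KO 3, 1.06 without KO 2 and -0.52 after correction for transcript length and GC content. Jund, the Jun gene with the steadiest expression in resting cells, had 2628, 4203 and 2400 counts in WT and 3221 and 8716 in KO. Here KO 2 lay within the WT range and KO 3 stood far above it. The log2 difference was 0.83 (SE 0.40), from 0.11 without KO 3 to 1.55 without KO 2, and it was -0.42 with overlapping groups after correction for transcript length and GC content.

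The AP-1 genes were also set against each other within each library. The ratio of Fos to Jun was 0.289, 0.31 and 0.445 in WT and 0.137 and 0.0748 in KO, so both KO libraries were below every WT library although their Jun levels differed 2.02-fold. The ratio of Jund to Jun was 0.334 to 0.378 in WT and 0.482 and 0.645 in KO. After correction for transcript length and GC content the groups still did not overlap for Fos to Jun (log2 ratio -1.70 to -1.05 in WT, -2.54 and -3.17 in KO), whereas for Jund to Jun they did (-1.40 to -0.94 in WT, -1.31 and -1.37 in KO). These ratios contain the values that chose the members and are given without a test.

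On a per-length scale, normalized reads per kilobase of the longest transcript, Fos made up 15.4%, 17.7% and 21.6% of the summed level of the 4 Fos and 3 Jun family genes in WT. In KO 2 it made up 7.33% and in KO 3 3.54%. The share of Jund was 21.3% to 25.5% in WT against 32.7% and 38.6% in KO, uncorrected for GC content. Under the linear correction for length and GC content the log2 difference of Jund was -0.42, as given above. The shares of Jun (31.3% to 37.7%) and Junb (19.8% to 25.9%) overlapped between the groups. The level of the Fos family over that of the Jun family was 0.197, 0.226 and 0.288 in WT and 0.0922 and 0.0439 in KO.

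**Figure D2:**
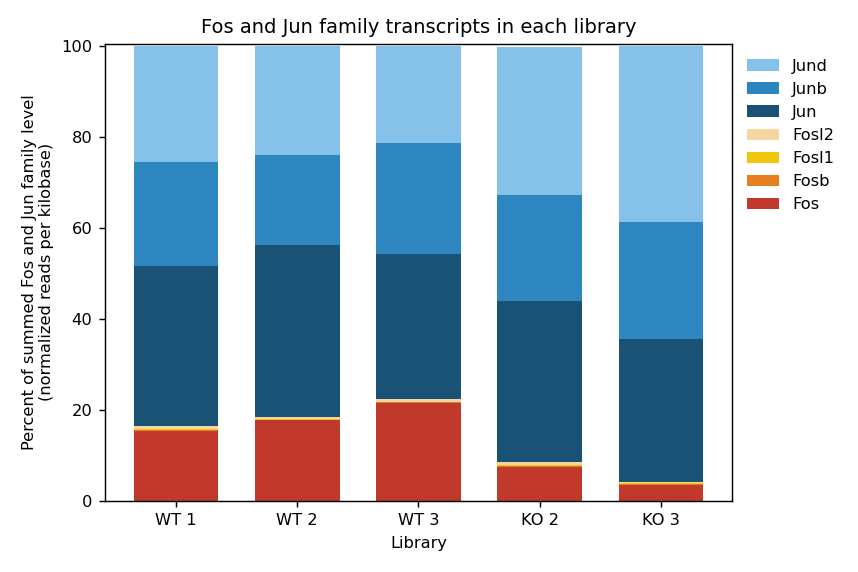
Share (%) of each Fos and Jun family gene in their summed level, in normalized reads per kilobase, for each library as a stacked bar. The Fos segment takes 15.4% to 21.6% in WT and 3.54% to 7.33% in KO, and the Jund segment is taller in both KO bars than in any WT bar. Shares are not corrected for GC content, and the log2 difference of Jund was -0.42 after that correction.

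Egr1, a zinc-finger factor known for holding HSCs in quiescence and in their niche, had 721.8, 1554 and 916.9 counts in WT and 796.7 and 1399 in KO. It was high in WT 2 and KO 3, as Jun was, and its group means of 1064 ± 435 (SD, n = 3) and 1098 ± 426 (SD, n = 2) were nearly equal. The log2 difference of 0.06 (SE 0.36) was -0.34 without KO 3 and 0.47 without KO 2. Nr4a1, an orphan nuclear receptor, varied least over the 5 libraries, with 246.4, 296.8 and 257.1 counts in WT and 211.8 and 277.9 in KO. Its log2 difference was -0.13 (SE 0.29), and the WT libraries spanned 1.21-fold against 1.94-fold for Fos. The difference was 0.06 without KO 2, -0.33 without KO 3 and -0.63 after correction for transcript length and GC content.

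Ier2, a small nuclear protein gene without introns, had 3459, 5674 and 4262 counts in WT and 5782 and 7817 in KO. Both KO libraries were above every WT library, KO 2 only just above WT 2. The log2 difference was 0.62 (SE 0.24), from 0.40 to 0.84 when single libraries were left out, and it was -0.16 with overlapping groups after correction for a trend with transcript length and GC content.

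The last pair encodes inhibitors. Dusp1, the MAP kinase phosphatase, had 1101, 1861 and 1497 counts in WT and 779.2 and 1671 in KO. KO 2 was below every WT library and KO 3 was second only to WT 2, so the log2 difference of -0.35 (SE 0.34) was -0.90 without KO 3 and 0.20 without KO 2.

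Zfp36 had 2925, 5105 and 4506 counts in WT 1, WT 2 and WT 3 and 2395 and 1961 in KO 2 and KO 3. Both KO values lay below every WT value, WT 1 being the nearest to them. The means were 4178 ± 1126 (SD, n = 3) and 2178 ± 307 (SD, n = 2), a log2 difference of -0.91 (SE 0.25). KO 3 was the lowest library for Zfp36, although in that library Jun, Junb, Jund and Ier2 exceeded every WT value (39.98% of all genes tested did). Its relative Zfp36l2, which codes for a protein of the same mRNA-decay family, was highest in KO 3, and the ratio of Zfp36 to Zfp36l2 was 0.272, 0.504 and 0.642 in WT against 0.218 and 0.0593 in KO.

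Some libraries were high or low for most members at once. All 10 members were highest, among WT libraries, in WT 2, where 33.2% of all genes tested were highest, and 8 of 10 were higher in KO 3 than in KO 2 (49.6% of all genes tested). KO 2 lay below all 3 WT libraries in 6 members (Fos, Jun, Junb, Nr4a1, Dusp1 and Zfp36), as it did in 30.9% of all genes tested. Together the 10 genes took 0.124%, 0.207% and 0.137% of reads in WT and 0.124% and 0.225% in KO. The summed share of 12 stromal and endothelial genes was also highest in WT 2, at 0.0177% of reads. It was 0.00492% and 0.00611% in the other WT libraries and 0.0048% and 0.00836% in KO. Of the 12 genes, 7 were highest in WT 2 and 3 in KO 2, and no share of all genes was computed for this count. Bglap was at 0 in all libraries but WT 2 (14.75 counts), whereas Sparc was higher in KO 2 (484.2) than in WT 2 (411.4). The part of stromal and endothelial genes in the WT 2 values was not tested.

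**Figure D3:**
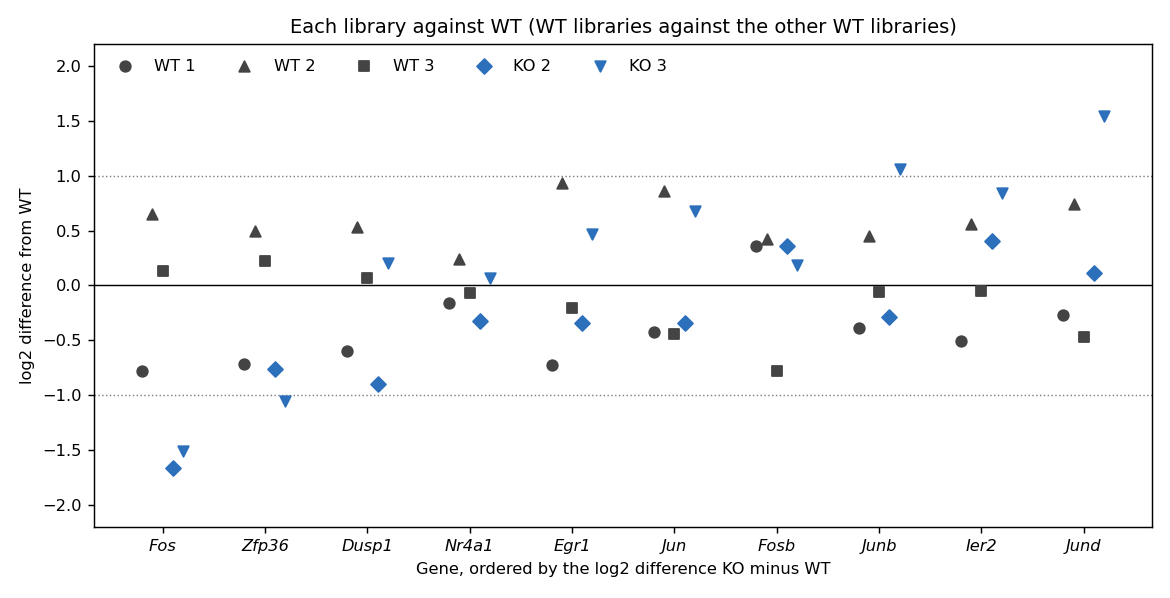
log2 difference of each library from WT for the 10 genes, ordered by the KO minus WT difference. KO libraries (blue) are set against the mean of all 3 WT libraries and each WT library (grey) against the mean of the other WT libraries; WT 2 lies above 0 for all 10 genes, and KO 3 ranges from -1.51 for Fos to 1.55 for Jund.

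Ranked per kilobase, the order of the members in WT was Ier2, Jun, Jund, Junb, Zfp36, Fos, Dusp1, Egr1, Nr4a1 and Fosb, from 2934 ± 737 to 14.2 ± 4.05 normalized reads per kilobase (SD, n = 3). Ier2 and Jun, Jund and Junb, Junb and Zfp36, and Zfp36 and Fos differed by less than the SD of either, whereas each step from Fos down to Fosb exceeded both SDs. Fos lay at the 91.3th percentile of all genes tested in WT and at the 70.8th in KO, and Zfp36 at the 91.9th and the 81.4th. In the KO mean Dusp1 stood above Fos, but in KO 2 alone Fos was higher (432.5 against 391.5 normalized reads per kilobase).

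The members shared features of transcript structure that the choice of genes did not use. Their longest transcripts were GC-rich, with a median of 56.5% against 50.3% for all tested genes, and 4 of them had a single exon (4.92% of tested genes). Over all genes tested, the median log2 difference KO minus WT climbed with GC content, from -0.81 in the lowest decile to 0.75 in the highest, and more steeply in KO 3 (to 1.01) than in KO 2 (to 0.49). Junb, Jund and Ier2 were in the highest decile, and Jund at 0.83 and Ier2 at 0.62 stood near its median, while Fos (51.9% GC) and Zfp36 (54.1% GC) lay 1.63 and 1.13 log2 units below the medians of their own deciles.

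After linear trends with length and GC content were taken out library by library, all 10 log2 differences were below 0, with a median of -0.50 against -0.02 for all genes tested. Fos was at -1.70, Zfp36 at -1.19, Dusp1 at -0.68, Nr4a1 at -0.63, Junb at -0.52, Egr1 at -0.48, Jund at -0.42, Jun at -0.23, Fosb at -0.17 and Ier2 at -0.16. Fos, Zfp36 and Nr4a1 then had both KO values below every WT value, beside 18.2% of the 13523 genes so corrected, and no member had both above (16.0% of those genes). The sign of Jund depends on this linear form, because against the median of its own GC decile Jund was 0.08 higher.

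**Figure D4:**
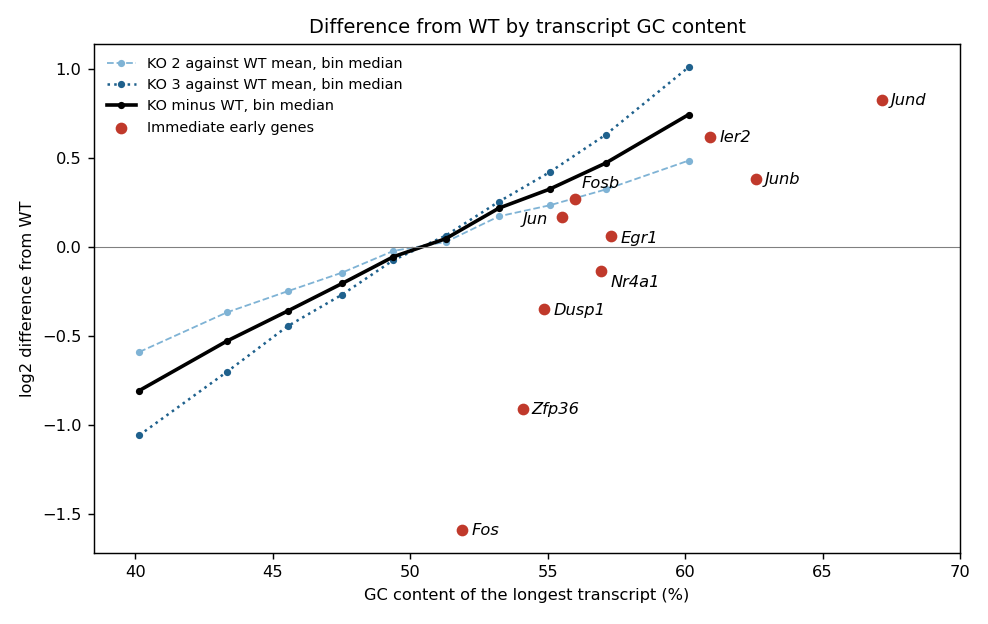
log2 difference from WT (vertical axis) against the GC content of the longest transcript (horizontal axis, %). Lines join the medians of deciles of the tested genes for KO minus WT (black) and for KO 2 and KO 3 alone, and red points are the 10 members; the black line runs from -0.81 to 0.75, and Fos and Zfp36 lie 1.63 and 1.13 below it at their deciles.

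Genes that act around the members were taken from lists of other primary response genes, upstream kinases and factors, partners and co-repressors, and feedback inhibitors. Of the 76 genes tested in these 4 lists, limma called 0 lower and 0 higher (smallest adjusted p = 0.0815, 19 at an unadjusted p under 0.05, a level that 27.8% of all genes tested reached). On recovered reads, edgeR also called 0 (18 at an unadjusted p under 0.05, against 27.2% of all genes tested), beside 0.0146% of all genes called, whereas DESeq2 called 6 lower and 8 higher of 71, beside 9.46% lower and 9.27% higher among all genes it tested.

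Other primary response genes, induced by the same signals, had a median log2 difference of 0.13 (-0.16 after correction for transcript length and GC content), with 2 of 26 tested genes below every WT value (7.69%, against 23.2% of all genes tested) and 6 above (23.1%, against 23.9%). Klf6, a zinc-finger factor, was at 1518, 1856 and 1871 counts in WT and 1009 and 1048 in KO, a log2 difference of -0.76 that limma did not call (adjusted p = 0.0818) and DESeq2 did (adjusted p = 0.00533). Maff, a small MAF protein gene, stood at 75.76, 78.98 and 43.7 in WT and 111 and 346.3 in KO (log2 difference 1.60, limma adjusted p = 0.118, DESeq2 adjusted p = 0.0234). Low Klf6 was shared by both KO libraries but was at -0.18 after correction for length and GC content, and high Maff, at 1.06 after it, came mainly from KO 3. The other genes at the ends of the list did not pass under any of limma, edgeR and DESeq2. Nr4a2, Ier5 and Nfkbia had log2 differences of 0.52, 0.49 and 0.36, and Sgk1, Socs3 and Btg2 of -0.59, -0.53 and -0.45. Egr2 and Egr3, the relatives of Egr1, were too low to test, and Egr3 was at 0 in all 5 libraries.

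Among 25 upstream kinases and factors the median log2 difference was -0.03 (-0.14 after the same correction), with 6 genes below every WT value (against 23.2% of all genes tested) and 3 above (against 23.9%). Map2k2, which phosphorylates ERK kinases, was at 3253 to 4091 counts in WT and 5593 and 7411 in KO (log2 difference 0.77, limma adjusted p = 0.082), and Rps6ka3, a kinase downstream of ERK, at 407 to 671 and at 274.5 and 183.8 (log2 difference -1.14, limma adjusted p = 0.0891). Both passed with DESeq2, as did Creb1, Map2k4 and Mapk9, which were lower, and Srf and Map2k7, which were higher. After the same correction Map2k2 was at 0.02, Map2k7 at 0.12 and Srf at -0.40, and Rps6ka3 was at -0.44, Creb1 at -0.16 (from -0.93), Map2k4 at -0.46 and Mapk9 at -0.20.

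The list of 10 partners and co-repressors had a median of 0.31 (0.06 after the same correction), with 1 gene below every WT value (23.2% of all genes tested) and 5 above (23.9%). Nab2, a co-repressor that binds EGR proteins, was at 291.4, 186.6 and 114 counts in WT and 466.7 and 883.9 in KO (log2 difference 1.80, limma adjusted p = 0.0818, DESeq2 adjusted p = 0.00352). Atf2, a partner of Jun, was at 1336 to 1803 in WT and 1047 and 698.6 in KO (log2 difference -0.85, limma adjusted p = 0.0893, DESeq2 adjusted p = 0.02). After the same correction Nab2 was at 1.07 and Atf2 at -0.13. Nab2 was therefore higher in both KO libraries while its partner Egr1 overlapped between the groups.

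Feedback inhibitors had the highest median of the 4 lists, 0.71, and 0.57 after the same correction. It came mainly from KO 3 (1.13, against 0.22 in KO 2, where partners and co-repressors had the higher median of 0.29). None of the 15 was below every WT value and 7 were above (46.7%, against 23.9% of all genes tested), and 13 were higher in KO 3 than in KO 2 (86.7%, against 49.6%). Dusp4, a phosphatase related to Dusp1, was at 144.9, 123.2 and 0 counts in WT and 177.8 and 511.8 in KO (limma adjusted p = 0.254), and no fold is given because WT 3 was at 0. Spry4 had 14.39 counts in KO 2 and 104.8 in KO 3, on either side of the WT range of 24.98 to 81.41. Dusp7, Spry1 and Zfp36l2 were higher with DESeq2 (adjusted p = 0.00238, 0.0321 and 0.0187), and limma gave adjusted p = 0.0815, 0.123 and 0.144.

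**Figure D5:**
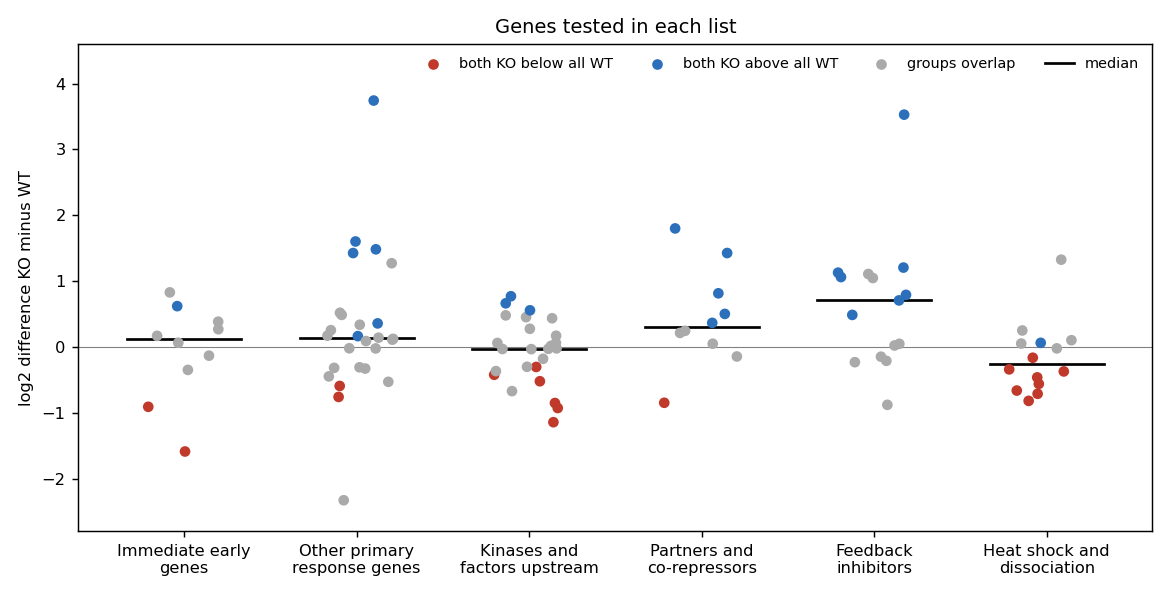
log2 difference KO minus WT of every tested gene in the member set and 5 further lists, with the median as a black bar; red and blue points have both KO values below or above every WT value and grey points overlap. Medians run from -0.25 for heat shock genes to 0.71 for feedback inhibitors.

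Heat shock genes, which are known to be induced together with immediate early genes by cell dissociation, were measured beside the members. Their median log2 difference was -0.25 (-0.17 after the same correction), with 8 of 14 genes below every WT value (57.1%, against 23.2% of all genes tested) and 1 above (7.14%, against 23.9%). Hsp90aa1, a cytosolic chaperone, was at 11190, 8049 and 10795 counts in WT and 7233 and 4365 in KO (log2 difference -0.82, and -0.33 after the same correction, limma adjusted p = 0.0992 uncorrected), and Hspe1, a mitochondrial co-chaperone, was at 0.25 (limma adjusted p = 0.533). Limma and edgeR called 0 of the 14 (5 at an unadjusted p under 0.05 with each, beside the same shares of all genes), and DESeq2 called Hsp90aa1. Among the WT libraries, WT 2 was highest for 3 of the 14, against all 10 members. Whether handling of the cells contributes to the members' values was not tested.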

How the data were processed

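Bulk RNA was measured by SMART-Seq libraries of sorted HSCs from 3 WT and 2 KO samples, grouped by the genotype on the labels. The authors deposited normalized signal, with reads per gene scaled by library-specific size factors. The submitters' processing notes name STAR, featureCounts, DESeq2 and mm10, and the annotation and strand setting are not given in the sources used here. Without strand, reads of overlapping or antisense genes cannot be told apart. A further table with the authors' own test results (fold changes and their p-values, raw and adjusted) was not used. Dividing each column by its smallest step gave whole reads for 100% of values (tolerance 0.01), and depth followed from their sums. Reads are not independent molecules.

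Log2 differences were taken on log2(value + 1), a scale that understates changes of low genes. The 13661 genes reaching a value of 10 in 2 or more libraries, all 10 members included, were fitted with limma 3.58.1 (lmFit and eBayes with trend, all 5 libraries, no covariate, R 4.3.3). Calls were made at a Benjamini-Hochberg adjusted p under 0.05. edgeR 4.0.16 (quasi-likelihood) and DESeq2 1.42.0 were run on the recovered reads. Of these tools only limma was also run on simulated counts, and the outcome is not given here. The members and all lists were chosen with earlier results of these data known. From the other primary response genes, called genes and the 4 highest and 4 lowest log2 differences at a mean of at least 50 were named, and from each other pathway list called genes and the 1 highest and 1 lowest. Genes that only DESeq2 called, and other relatives of the members, were named after their values were seen. Length, GC content, exons and 3′ ends came from GENCODE M21 (GRCm38), matched by symbol or RefSeq synonym for 99.0% of tested genes. Linear trends on log2 length and GC content were removed per library as an alternative. Other alternatives were the pseudocount, filter, scaling, tool, replicate block and removal of each library. Every pair of libraries differed by more than read-counting error alone (lowest chi-square 34.1 per degree of freedom), a check for a library deposited more than once that covers counting error only.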

Additional observations from a re-analysis of the deposited data

How the results depend on the processing

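Scaling, pseudocount and filter changed no count of called pathway genes and no sign of a member. The median log2 difference of the 10 members, 0.12, became -0.50 with the length and GC trend removed and -0.33 without KO 3, and ranged from -0.33 to 0.39 when single libraries were left out. Members with both KO values above every WT value numbered 1, then 0 with the length and GC trend removed and 1 to 4 when single libraries were left out. The 4 came without KO 2, and KO 3 alone lay above every WT value in 39.98% of all genes tested. Members below numbered 2, and 2 to 6 when single libraries were left out. The 6 came without KO 3, and KO 2 alone lay below every WT value in 30.9% of all genes tested. Shares of all genes for the other left-out libraries were not computed. DESeq2 called 6 lower and 8 higher of the 71 pathway genes it tested, beside 9.46% lower and 9.27% higher of all genes, where limma called 0 of 76. Leaving out single libraries gave 0 to 5 lower and 0 to 11 higher, with the calls arising without KO 2 (14.4% of all genes tested were then called lower and 12.2% higher), when KO 3 is a lone sample assumed to vary like WT.

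Replicate numbers 2 and 3 are shared by the groups. The deviations of same-numbered libraries correlated at -0.15, so the numbers do not show a pairing. The replicate block leaves out WT 1, which has no KO partner, so its member log2 differences equal those without WT 1. With the replicate block the members' median was -0.07, and 2 members were lower and 2 higher in KO within both pairs. No share of all genes was computed for that count, so nothing is read from it. Of the pathway genes 0 were called in either direction, beside 0.0805% lower and 0.0439% higher among all genes tested. A crossed pairing, chosen after seeing the data, called 6 lower and 13 higher pathway genes, where 10.7% of all genes tested were called in each direction.

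With 2 KO libraries, of which KO 3 had the least depth and the steepest trend with GC content, genotype, depth and that trend cannot be told apart.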

Other observations

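The profile of the 10 members over the 5 libraries, each gene centred on its mean log2 value, averaged -0.26, 0.42 and -0.09 in WT 1, WT 2 and WT 3 and -0.35 and 0.27 in KO 2 and KO 3. The 8 other genes with the most similar profile, by root mean square difference over the 5 libraries among 11427 genes, were Marcks, Cep41, Banp, Ehmt1, Klf2, Eepd1, Syce1l and Kansl3, at 0.064 to 0.082 log2 units. Klf2, a zinc-finger factor that is itself a primary response gene, had 709.3, 1310 and 875.8 counts in WT and 761.7 and 1113 in KO. Marcks, a substrate of protein kinase C, had 492, 706.5 and 565.6 in WT and 445.1 and 672.8 in KO. The member nearest to this average profile was Nr4a1, with 102 of the 11427 genes closer, and the farthest was Fos, with 10139 closer. Zfp36 had 7232 genes closer, Jund 7127, Fosb 5066, Ier2 2966 and Junb 2400, against 488 for Dusp1, 322 for Jun and 121 for Egr1. The average is therefore not a profile that all members share.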
